A study of Mus musculus with 6 samples.

Results

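Kit ligand and its receptor Kit, encoded by the mouse genes Kitl and Kit, are described here in embryos cultured in cavities of 2 widths. Both members were chosen by name, after an earlier account of these data had listed Kitl among the genes with the clearest difference between cavities. Each was measured by the 1 array feature that names it alone, and they are 2 of 19938 genes measured. The narrow against wide contrast thus led to the choice of members, and their differences are given as a description with no test.

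The series used whole embryos of CD1 mice, an outbred stock, taken at embryonic day 5.0, shortly after implantation. One group of 3 samples was cultured for 8 hours in narrow cavities of 90 µm diameter, and the other group of 3 in wide cavities of 180 µm. Every sample was a pool of 30 embryos, measured as log2 signal on an Affymetrix Mouse Gene 1.0 ST array, and the samples are called narrow 1 to 3 and wide 1 to 3 after their replicate numbers. No genotype, transgene or agent is named in the labels, and embryos taken fresh without culture were not analysed here. The design text poses the question as one of embryos grown with or without mechanical cues from outside.

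Kit ligand, also called stem cell factor, is a growth factor made as a membrane-bound protein, from which proteases can release a soluble form. It binds Kit, a receptor tyrosine kinase of the type III family, which pairs up on binding and signals through phosphoinositide 3-kinase, Src family kinases, the Ras and MAP kinase cascade and STAT proteins. The pair is known for the survival and migration of germ cells, melanocyte precursors, blood progenitors and mast cells.

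Kitl, the ligand gene, had a higher signal in narrow than in wide cavities. Its log2 signal was 8.92 in narrow 1, 8.95 in narrow 2 and 8.89 in narrow 3. In wide 1, wide 2 and wide 3 it was 8.66, 8.65 and 8.73. All 3 narrow pools lay above all 3 wide pools, and the gap of 0.16 between the lowest narrow and the highest wide pool exceeded the range within the narrow (0.051) and the wide pools (0.079). The group means were 8.92 ± 0.026 in narrow and 8.68 ± 0.046 in wide cavities (SD, n = 3 each). This is a difference of 0.24 ± 0.043 (SE) on the log2 scale and a ratio of 1.18-fold.

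Pairs of pools with the same replicate number gave Kitl differences (narrow minus wide) of 0.26 for number 1, 0.29 for number 2 and 0.16 for number 3. The third was the smallest. All 3 had to be positive, since every narrow pool lay above every wide pool, so their shared sign adds nothing. Leaving out any single array gave a Kitl difference from 0.23 to 0.26 on the log2 scale. Without both arrays numbered 1, whose deviations from their group means correlated at 0.516 over all genes, it was 0.23 ± 0.052.

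Kit, the receptor gene, did not follow the same pattern across the pools. Its log2 signal was 8.53, 8.47 and 8.60 in narrow 1, 2 and 3, and 8.67, 8.45 and 8.48 in wide 1, 2 and 3. The groups overlapped, since the highest and the lowest of the 6 pools were both wide ones. Both group means were 8.53, with an SD of 0.063 in narrow and 0.12 in wide cavities (n = 3 each), and the difference was -0.00089 ± 0.067 (SE).

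Same-numbered pairs gave Kit differences of -0.14 for number 1, 0.020 for number 2 and 0.11 for number 3. These pairs disagreed in sign. Wide 1 held the highest Kit signal and bore on the estimate: without it the difference was 0.068 ± 0.054. Without narrow 2 it was also positive, at 0.031 ± 0.075, and without wide 2 it was -0.044 ± 0.072. The sign of the small Kit difference thus depended on which pools were included.

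**Figure D1:**
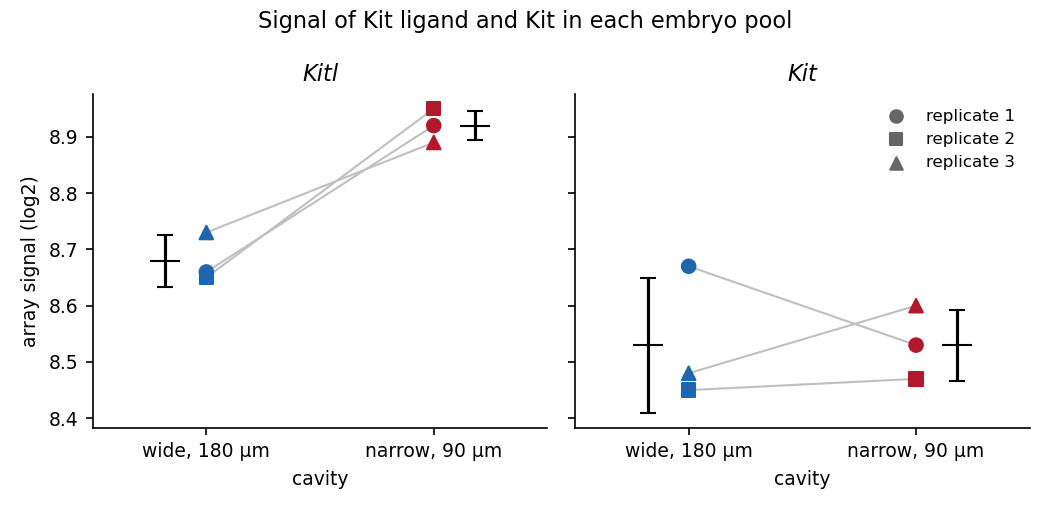
Array signal (log2, vertical axis) of Kitl (left) and Kit (right) in each pool of embryos from wide and narrow cavities. Symbols mark the replicate number, grey lines join pools with the same number, and black bars give the group mean with its SD (n = 3). The 3 narrow pools lie between 8.89 and 8.95 for Kitl, above the wide pools at 8.65 to 8.73, whereas the groups overlap for Kit.

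Among all genes measured, 29 had a larger positive difference than Kitl, and 0.306% had a larger difference in either direction. For Kit, 98.4% of genes had a larger difference in either direction. The SD of Kitl within groups was 0.037, at percentile 16.4 of all genes, and that of Kit was 0.096, at percentile 76.7. Kitl thus combined a difference in the upper tail with a spread between replicates below the median gene, at 0.067. Over the 6 arrays the SD of Kitl was at percentile 94.0 and that of Kit at percentile 70.2.

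**Figure D2:**
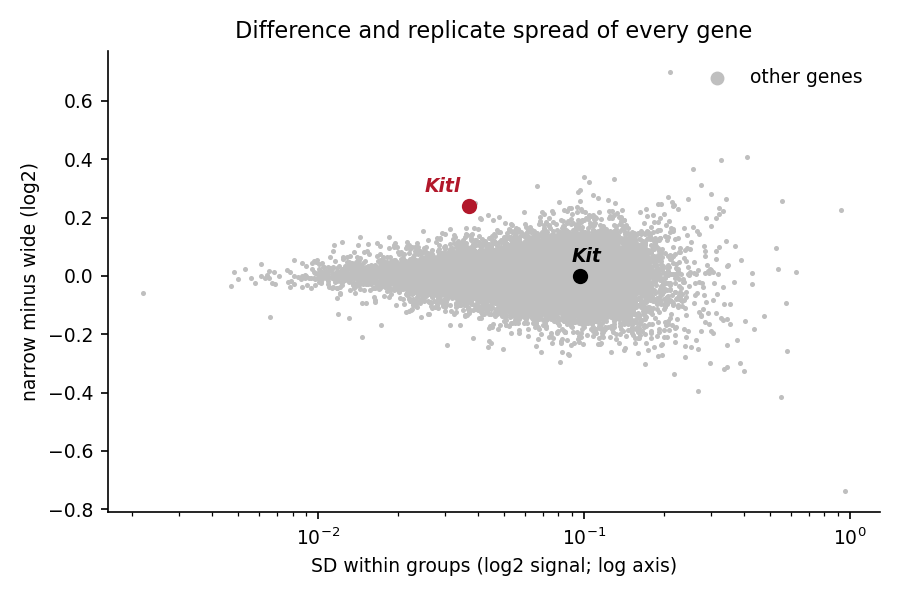
Difference between cavities (narrow minus wide, log2, vertical axis) against the SD within groups (log2 signal, on a log axis) for every gene measured. Each grey point is a gene, and Kitl (red) and Kit (black) are marked. Kitl lies at 0.24 with an SD of 0.037, at the upper edge of the points with a similar spread, and Kit lies at the zero line with an SD of 0.096.

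A limma fit over all 19938 genes, with p-values adjusted after Benjamini and Hochberg, called 0 genes at the threshold of 0.05 in either direction, a background of 0%, and the smallest adjusted p was 1.00. Neither Kitl nor Kit is therefore among called genes. Before adjustment, 335 genes (1.68%) were higher in narrow cavities with p below 0.05, and 343 (1.72%) were lower. In 831 genes (4.17%), Kitl among them, every narrow pool lay above every wide pool, and in 705 (3.54%) every one lay below. Since Kitl was chosen on this contrast, its place among these genes is a description.

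In pools of whole embryos, more RNA per cell and more cells that express a gene cannot be told apart. Each gene had 1 array feature, while the RefSeq gene table lists 4 transcripts for Kitl and 4 for Kit, so the values do not separate transcripts that give membrane-bound or soluble ligand. RNA was measured, and protein on the cell surface was not. Signals of Kitl and Kit come from different probes and are not set against each other as levels.

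The proteases that can release soluble Kit ligand were measured next to it. Of 4 such genes, 0 rose, 0 fell and 4 did not pass the adjusted test, with a median difference of 0.023 against 0.001 over all genes. Mmp9, a gelatinase, had a signal of 9.48 ± 0.19 in narrow and 9.33 ± 0.16 in wide cavities (SD, n = 3 each), a difference of 0.14 ± 0.11 (SE). The difference was 0.017 ± 0.038 for Adam17, a membrane-bound sheddase of many growth factors, 0.030 ± 0.056 for the related Adam33 and -0.0063 ± 0.048 for Cma1, a chymase of mast cells. In all 4 genes the groups overlapped, as they did in most genes measured.

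The other type III receptor genes, relatives of Kit with the same arrangement of domains, were all close to 0. Of 4 receptors, 0 rose, 0 fell and 4 did not pass, and their median difference was 0.008. Pdgfra, a receptor for platelet-derived growth factors and the nearest measured gene on one side of Kit in the mouse genome, had a difference of 0.011 ± 0.048. Pdgfrb, the second receptor of these factors, stood at -0.014 ± 0.046. For Csf1r, the receptor of the macrophage growth factor Csf1, it was 0.039 ± 0.042, and for Flt3, a receptor of early blood cells, 0.0043 ± 0.11. Like Kit itself and most genes measured, none of these receptors separated the groups. Over all genes 4.17% did so with narrow above wide and 3.54% with narrow below.

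Ligands of these receptors, the counterparts of Kitl in the family, gave 0 genes that rose, 0 that fell and 7 that did not pass, with a median difference of -0.009. Pdgfc, a platelet-derived growth factor, had the most negative value, with 7.91, 7.79 and 7.73 in narrow 1, 2 and 3 and 8.06, 7.96 and 7.88 in wide 1, 2 and 3. These groups overlapped, although each narrow pool lay below the wide pool of its number, and the difference was -0.16 ± 0.065 (limma, unadjusted p = 0.04, adjusted p = 1.00). Pdgfa, a ligand of Pdgfra, had 0.091 ± 0.078, Pdgfd 0.036 ± 0.068 and Pdgfb -0.0094 ± 0.049. The differences were 0.022 ± 0.048 for Csf1, -0.011 ± 0.078 for Il34, which shares its receptor, and -0.061 ± 0.065 for Flt3l, the ligand of Flt3. Whether Kitl differed from these ligands in its response was not tested, because Kitl was chosen for its difference.

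Genes that carry the signal of activated Kit showed small differences in both directions. Of the 27 listed, 21 were measured by a feature of their own, of which 0 rose, 0 fell and 21 did not pass, with 10 positive differences, a range from -0.10 to 0.07 and a median of -0.002. Pik3r1, the regulatory subunit of the phosphoinositide 3-kinase that docks on Kit, had a signal of 10.89 ± 0.049 in narrow and 10.99 ± 0.050 in wide cavities (SD, n = 3 each), a difference of -0.10 ± 0.047. Shc1, an adaptor that leads to Ras, had 11.21 ± 0.030 and 11.15 ± 0.024, a difference of 0.064 ± 0.040. It was the 1 gene of the 21 whose narrow pools all lay above its wide pools, beside 4.17% of all genes. The other listed genes were not analysed here.

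Among 14 genes that damp Kit signalling, 13 were measured, of which 0 rose, 0 fell and 13 did not pass, with 6 positive differences and a median of -0.005. Socs1, a suppressor of cytokine signalling, had the smallest p of the list with a difference of -0.12 ± 0.078. Sh2b3, an adaptor that restrains Kit and other receptors in blood cells, followed with -0.077 ± 0.053. Cbl, the ubiquitin ligase that sends activated Kit to degradation, stood at 0.061 ± 0.062. The groups overlapped for every gene of this list, as they did for most genes measured.

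Of 10 transcription factors known to act on the Kit or Kitl gene in some cell type, 0 rose, 0 fell and 10 did not pass, with a median difference of 0.013. Gata1, an erythroid factor, differed from the rest of its list. It had log2 signals of 8.56, 8.46 and 8.64 in narrow 1, 2 and 3 and of 8.16, 8.25 and 8.36 in wide 1, 2 and 3. Its groups did not overlap, and the difference was 0.29 ± 0.067 (limma, unadjusted p = 0.00216, adjusted p = 1.00). The list was written with that value known, so it adds no support.

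Other factors of the list had smaller differences than Gata1. Tal1, its partner in blood cells, had a difference of -0.12 ± 0.065. Ldb1, which joins both in a complex, had -0.059 ± 0.041, with all narrow pools below all wide pools, as in 3.54% of all genes. Gata2, which acts on Kit in blood progenitors and mast cells, stood at 0.048 ± 0.053, and Mitf, which acts on Kit in mast cells and melanocytes, at -0.0098 ± 0.057. Over the 6 pathway and family lists, which held 59 measured genes, 1 gene had a larger difference than Kitl in either direction, namely Gata1. The unadjusted threshold was met by 1 of the 59 in each direction, Gata1 higher and Pdgfc lower, beside backgrounds of 1.68% and 1.72%. A limma fit with a replicate block, which takes same-numbered pools as pairs, put 2 of the 59 past this threshold as higher and 4 as lower, beside backgrounds of 3.54% and 3.72% of all genes. Myb then joined Gata1, and Socs1, Tal1 and Pik3r1 joined Pdgfc, and 0 of the 59 passed after adjustment. In the fit without the block, Pdgfc missed the unadjusted threshold without narrow 2, narrow 3, wide 1 or wide 2 (p from 0.075 to 0.137). With the block it had -0.16 ± 0.034 (limma, unadjusted p = 0.00362, adjusted p = 0.674). Its differences were -0.15, -0.17 and -0.16 in the pairs numbered 1, 2 and 3.

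**Figure D3:**
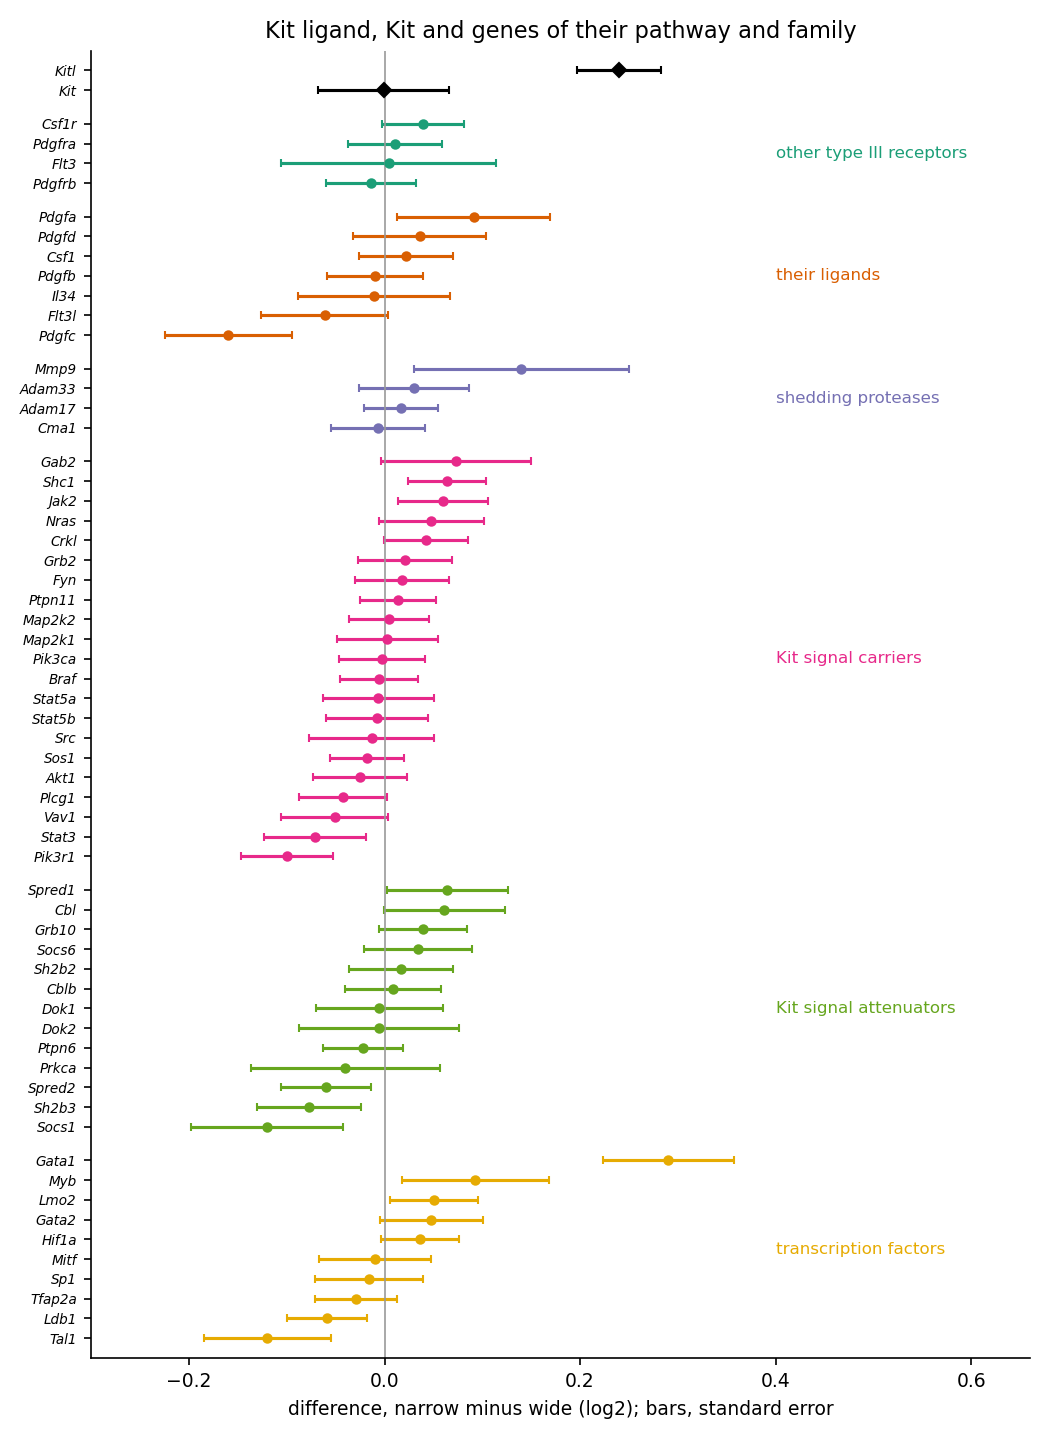
Differences between cavities (narrow minus wide, log2, horizontal axis) of Kitl, Kit and the 59 measured genes of 6 lists, each sorted by difference. Points are limma estimates from 3 pools a group and bars their standard errors. Kitl at 0.24 and Gata1 at 0.29 lie to the right of all other genes shown, while Kit and most signalling genes lie around 0.

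Markers of the tissues in the label did not pass the adjusted test. All 8 epiblast, all 8 extraembryonic ectoderm and all 8 visceral endoderm markers had a signal above the median gene, so the defining markers of all 3 tissues of a whole embryo lay among the brighter features, although signals of different probes do not order expression. In each of these lists 0 genes rose and 0 fell. Median differences were -0.035, -0.001 and -0.0002. Examples with the smallest p were Sox2 (-0.095 ± 0.047) and Nanog (-0.16 ± 0.089) in the epiblast, Bmp4 (-0.21 ± 0.077) and Tfap2c (0.093 ± 0.047) in the extraembryonic ectoderm, and Foxa2 (0.13 ± 0.062) and Hnf4a (-0.064 ± 0.040) in the visceral endoderm. Bmp4, a ligand that patterns the epiblast, met the unadjusted threshold (limma, unadjusted p = 0.0265, adjusted p = 1.00). Its differences were -0.19, -0.21 and -0.22 in the pairs numbered 1, 2 and 3. In the fit without the replicate block, Bmp4 missed the threshold without narrow 3, wide 1 or wide 2 (p from 0.0751 to 0.0931). With the block, which uses the pairs, Bmp4 had -0.21 ± 0.034 (limma, unadjusted p = 0.000973, adjusted p = 0.63). All narrow pools lay below all wide pools for Bmp4, Sox2 and Hnf4a, and above them for Tfap2c. Over all genes these shares were 3.54% below and 4.17% above. The median signal of the visceral endoderm list ran from 11.69 to 11.81 in narrow and from 11.78 to 11.82 in wide pools, that of the epiblast list from 11.04 to 11.11 and from 11.06 to 11.08, and that of the extraembryonic ectoderm list from 11.55 to 11.72 and from 11.65 to 11.66. The part of tissue composition in the Kitl difference was not tested.

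Cell types that are known to use Kit were looked for by their own markers. Of 8 germ cell markers 0 rose and 0 fell, with a median of 0.052 and list signals of 7.89 to 8.05 in narrow and 7.85 to 8.00 in wide pools. Tfap2c, which the extraembryonic ectoderm shares, and the RNA helicase Ddx4 (0.077 ± 0.053) had the smallest p. A positive difference was found in 5 of the 8 germ cell markers, and the range ran from -0.04 to 0.12. Their median was 0.023 without narrow 1 and 0.032 without wide 2. Among those with a signal above the median gene it was 0.085. For 8 blood progenitor markers the median was -0.030, led by the embryonic globin Hba-x (-0.20 ± 0.095) and Runx1 (-0.085 ± 0.054), with 7.32 to 7.42 in narrow and 7.32 to 7.52 in wide pools. Of these 8 markers 2 had a positive difference, Gfi1b (0.030 ± 0.063) and Klf1 (0.0016 ± 0.069).

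Mast cell markers were dim, 5 of 6 lying below the median gene, with list signals of 5.32 to 5.48 in narrow and 5.39 to 5.48 in wide pools and a median difference of 0.005. Hdc, which makes histamine, had -0.11 ± 0.061 and the tryptase Tpsb2 0.065 ± 0.041. All 5 melanocyte markers lay below the median gene, with 7.05 to 7.17 and 7.12 to 7.24, a median of -0.034 and Pmel (-0.074 ± 0.052) and Mlana (-0.034 ± 0.048) first. In both lists 0 genes rose and 0 fell.

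Markers of neighbouring tissues that a dissected embryo could carry did not pass either. The median difference was 0.060 for the 4 measured of 6 markers of trophoblast giant cells and ectoplacental cone, led by Ascl2 (0.21 ± 0.12) and Tpbpa (0.086 ± 0.089), with list signals of 7.38 to 7.61 in narrow and 7.27 to 7.43 in wide pools. Without narrow 1 that median was 0.13 and without narrow 2, narrow 3 or wide 1 between 0.025 and 0.032, and without wide 2 the Ascl2 difference was 0.068 ± 0.078. The median was 0.034 for 6 parietal endoderm markers, led by Thbd (0.13 ± 0.060) and Snai1 (0.058 ± 0.046), with 10.52 to 10.62 and 10.51 to 10.54. A positive difference was found in 4 of these 6 parietal endoderm markers, and the range ran from -0.05 to 0.13. For 6 markers of maternal decidua the median difference was 0.019, led by Hoxa11 (0.080 ± 0.051) and Hoxa10 (-0.072 ± 0.051), with 6.75 to 6.82 and 6.73 to 6.76. Their part in the Kitl difference was not tested.

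Genes beside Kitl and Kit in the genome had smaller differences than Kitl. On one side of Kitl the nearest measured protein-coding genes were Csl (-0.068 ± 0.068), Dusp6 (-0.027 ± 0.042), a phosphatase that limits ERK signalling, and Galnt4 (-0.020 ± 0.063). On the other side were Tmtc3 (-0.027 ± 0.064), Cep290 (0.044 ± 0.056), a ciliary gene, and 4930430F08Rik (0.0031 ± 0.048). Beside Kit lay Pdgfra, given above, Gsx2 (0.074 ± 0.076) and Chic2 (-0.050 ± 0.059), and on the other side Kdr (0.079 ± 0.079), a receptor of vascular endothelial growth factor, Srd5a3 (0.13 ± 0.069) and Tmem165 (0.028 ± 0.045). In all 12 the groups overlapped, as they did in most genes measured. Srd5a3 had the largest difference of the 12, and 3.89% of all genes had a larger one in either direction. Its differences were 0.13, 0.13 and 0.14 in the pairs numbered 1, 2 and 3, and its standard error with the replicate block was 0.034.

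Genes whose values ran most like those of each member were found by the root mean square difference of log2 values over the 6 arrays, after centring each gene on its mean. For Kitl they were Cxcr4 (0.029), a chemokine receptor, Rnf144b (0.032), Gprc5c (0.035), Dsc3 (0.039), a desmosomal cadherin, and Foxa1 (0.041), an endoderm transcription factor. Their differences between cavities were 0.25 ± 0.043, 0.22 ± 0.050, 0.19 ± 0.045, 0.20 ± 0.056 and 0.16 ± 0.041. For each of the 5 all narrow pools lay above all wide pools, which follows from their choice by likeness to Kitl.

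For Kit the nearest were Wdr35 (0.011), Dhrs1 (0.020), Cdca7 (0.025), Tmem238 (0.026) and Taf1 (0.026). These shared with Kit a high value in wide 1 and lower values in wide 2 and wide 3, and their differences lay between -0.020 and 0.013. These likenesses rest on 6 arrays and are given as a description.

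**Figure D4:**
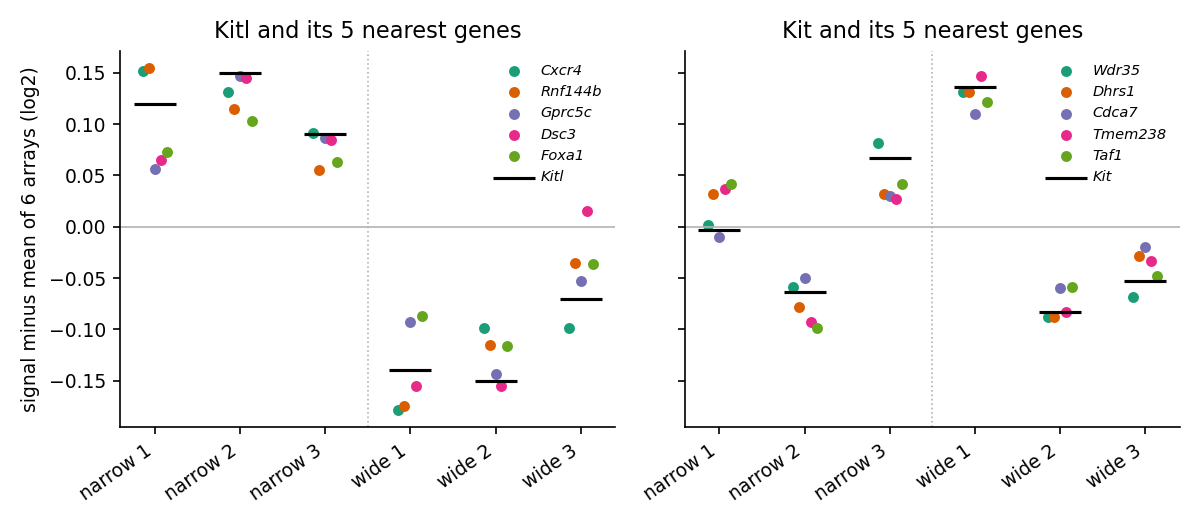
Log2 signal of each gene minus its mean over the 6 arrays (vertical axis), by sample, for Kitl (left, black bars) and Kit (right, black bars) with the 5 genes nearest to each (coloured points). The Kitl set is above 0 in all narrow pools and mostly below 0 in wide pools, and the Kit set is highest in wide 1.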

How the data were processed

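The authors deposited 1 table of log2 signals, 1 value per feature and sample, on Affymetrix Mouse Gene 1.0 ST arrays per the labels and design text. The log2 scale was read from the range of 4.33 to 14.31. The background correction, normalization method and software were left unnamed by the sources used here. Array medians lay between 7.62 and 7.67, so values were used as deposited. Whether the arrays were scaled to a common level is not stated, and such scaling would remove changes in total RNA. The number of arrays limits the precision.

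Of 28853 features, 21789 named 1 gene in the platform annotation (1621 several, 5443 none), covering 19938 genes. The feature with the highest mean was used for the 999 genes with several. Entrez identifiers of 21698 features were found in the RefSeq gene table (GRCm38.p6), which changed 0 symbols. As no source used here names the array's build, the gene table served for names and gene order only.

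Differences (narrow minus wide) were fitted over all genes with limma 3.58.1 in R 4.3.3 (lmFit, eBayes, two-sided, no covariate), with Benjamini-Hochberg adjustment at 0.05, and carry the fit's standard error. In data simulated from these genes (20 runs, 200 of 19938 genes changed) limma recovered 34.0% of changes of 0.25 and 82.8% of changes of 0.5. The simulated noise was independent between arrays, with no part shared by same-numbered arrays. These shares therefore need not hold for the real arrays.

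Deviations from group means correlated at 0.516, 0.176 and 0.272 between same-numbered arrays. All exceed 0.1, so the fit with the replicate block took numbers as pairs. The meaning of a number is unstated, however, and narrow 2 with wide 3 gave 0.178. The main fit left the pairs out, and standard errors and p-values come from it unless another fit is named.

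The members and the 16 lists (135 entries, 126 measured) were chosen with earlier results of these data known. Named genes were both members, the other type III receptors and their ligands, the 2 genes of each list with the smallest p, 3 neighbours on each side and the 5 nearest patterns, without predicted genes, chemosensory receptors and small RNAs. Adam17, Cma1, Cbl, Ldb1, Gata2, Mitf, Myb, Gfi1b, Klf1 and Cdx2 were named after their values were seen.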

Additional observations from a re-analysis of the deposited data

How the results depend on the processing

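Over 12 alternatives the Kitl difference stayed between 0.23 and 0.26. That of Kit lay between -0.044 and 0.068 and changed sign, being 0.067 without both arrays numbered 1, an alternative chosen after the data were seen. Alternatives that altered only the error model, the set of genes or the averaging of features could not move either difference. Kitl and Kit have 1 feature each. The remaining alternatives reused the contrast on which Kitl was chosen. With the replicate number as a block, Kitl had 0.24 ± 0.041 and Kit -0.00089 ± 0.054. In every fit run, 0 genes passed the adjusted threshold, all listed genes included. The 678 genes at an unadjusted p under 0.05 became 1446 with the replicate block and 384 among the brighter genes (above percentile 50), a smaller set. Leaving out single arrays gave 497 to 990. Of 191 list medians under alternatives, 13 moved by more than 1 SD and 33 had the other sign, none of them called. The SD was that of the list's median deviation from the group means, pooled over arrays within groups. The 191 include alternatives that altered only the error model, the replicate block among them. Those could not move a median, so the counts make the medians look steadier than they are. With the block the listed pathway genes at an unadjusted p under 0.05 went from 2 to 6 of 59 and all listed genes from 3 to 11 of 124. The shares over all genes also rose, from 1.68% higher and 1.72% lower in narrow cavities to 3.54% and 3.72%. The rise among listed genes is therefore not read as a result about them. The 5 marker genes among the 11 were Foxa2 and Thbd, higher in narrow cavities, and Bmp4, Nanog and Cdx2, lower. The block changed no call after adjustment. No background signal came with the table, which limits what dim genes show.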
